A study of Mastomys natalensis with 3 samples.

Results

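The AP-1 transcription factor genes Jun, Junb, Jund, Fos, Fosl1 and Atf3 were followed on 3 Affymetrix rat arrays hybridised with stomach RNA of Mastomys natalensis. The 6 genes were chosen by their symbol in the platform annotation, which names 4736 genes through probe sets with a single symbol. They have 12 probe sets: 4 for Jun, 3 for Fos, 2 for Junb, and 1 each for Jund, Fosl1 and Atf3. No further probe set with several symbols named a member. The groups were a spontaneous gastric carcinoid of enterochromaffin-like (ECL) cells, loxtidine treatment lasting 16 weeks, and loxtidine treatment lasting 8 weeks, with 1 array each. Loxtidine is an antagonist of the histamine H2 receptor and so lowers gastric acid. Per the labels every sample was an enriched population of ECL cells, but the source field reads gastric mucosa for the carcinoid and 16-week samples and ECL cells for the 8-week sample. The sources used here do not give strain, age, sex, the enrichment method or the number of animals per sample. An untreated stomach was not analysed here.

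AP-1 is a dimer of leucine zipper proteins that binds DNA at short palindromic sites in promoters and enhancers. Jun proteins pair with each other or with Fos proteins, and Atf3 can pair with Jun proteins. Several of these genes are immediate early genes, whose mRNA is made within minutes of a stimulus and decays quickly. In ECL cells gastrin acts through the receptor Cckbr and the MAP kinase cascade, and AP-1 lies downstream of it. Acid blockade raises circulating gastrin, and prolonged high gastrin makes ECL cells grow.

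Values are intensities after quantile normalization, which gives the 3 arrays the same distribution, unless the deposited intensity is named. A floor of 12.4, the pooled median of the non-control probe sets, was set under every value. Where only 1 of 2 arrays reached the floor the fold is a bound, and where neither did no fold is given. Each fold compares a probe set with itself, since rat probes may bind Mastomys transcripts unequally. With 1 array per group there is no replicate check and no p-value. As the only available error, the disagreement of the 2 brightest probe sets within a gene was used. The root mean square gap, divided by the square root of 2 to stand for 1 probe set, is called the spread. In log2 units it was 0.79 over 410 genes in the 16-week against 8-week comparison. It was 0.82 over 395 in carcinoid against 8 weeks, and 0.62 over 457 in carcinoid against 16 weeks. It contains no variation between animals, and fewer cells of a type cannot be told apart from less RNA per cell.

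All 12 AP-1 probe sets had their highest normalized value on the 8-week array, including the pair that never reached the floor. Among the 10 that reached the floor on at least 1 array the count was 10, against 37.3% of the 6186 probe sets of the whole table that reached it. The Jund probe set and X06769cds_at of Fos reached the floor on the 8-week array alone, so their place in this count was fixed. In the deposited intensities 10 of the 12 were highest on the 8-week array, against 21.7% of 8740 probe sets. The exceptions as deposited were 1 Jun and 1 Fos probe set, both highest on the carcinoid array. Probe sets of a gene share their target, so 12 probe sets are not 12 independent observations.

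**Figure D1:**
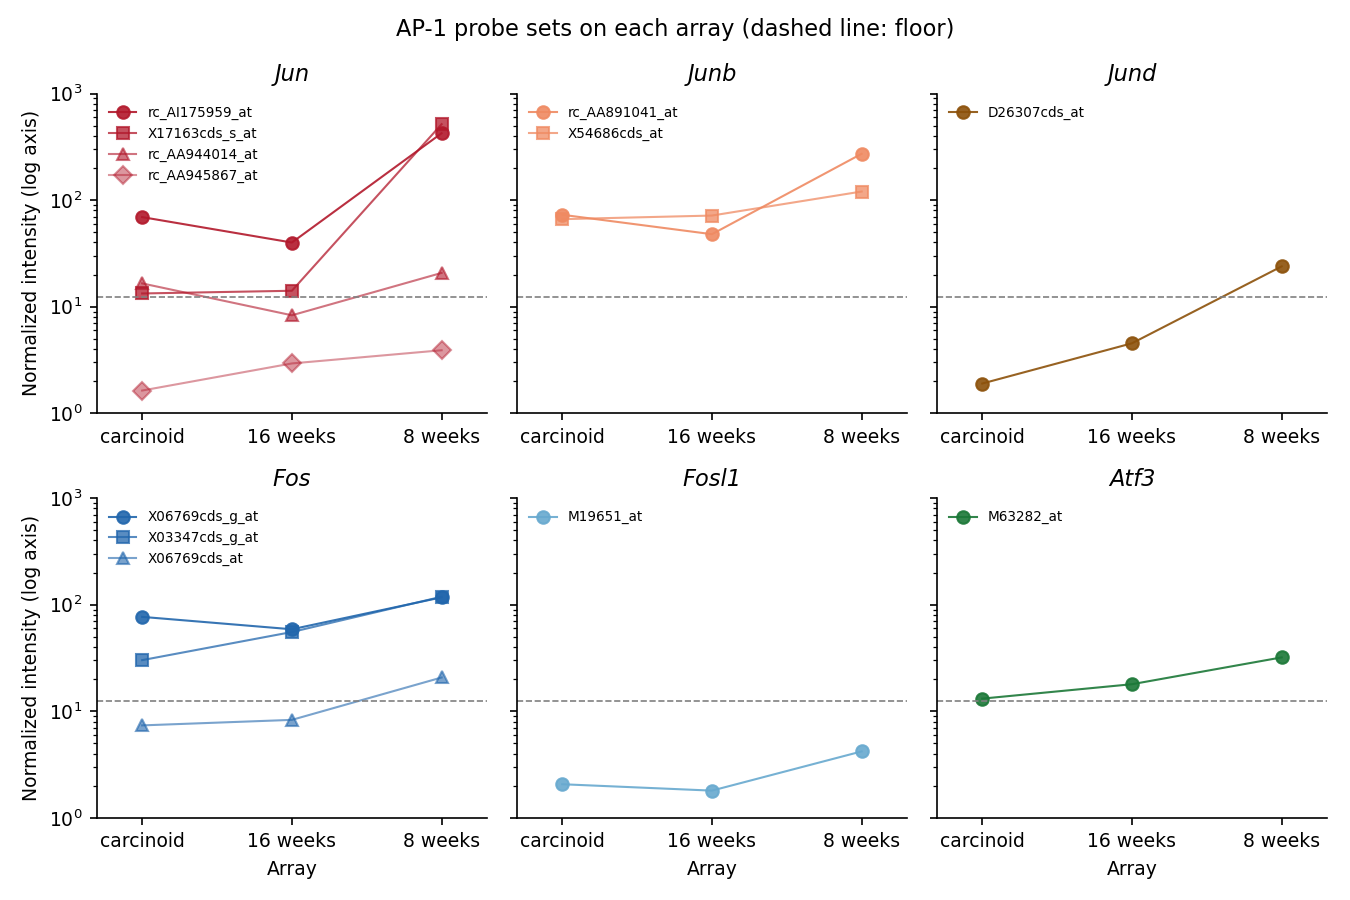
Normalized intensity (log axis) of every AP-1 probe set on the carcinoid, 16-week and 8-week arrays, 1 panel per gene. Each symbol is 1 probe set on 1 array, a line joins the values of a probe set, and the dashed line is the floor of 12.4. The 2 brightest Jun probe sets reach 424 and 516 on the 8-week array, and every probe set is highest there.

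Jun, whose protein is the transactivating core of AP-1, stood furthest apart. Its brightest probe set, rc_AI175959_at, made from an expressed sequence tag, read 69.3 on the carcinoid array, 40.0 at 16 weeks and 424 at 8 weeks. As deposited it read 82.6 for the carcinoid, 43 at 16 weeks and 293 at 8 weeks. The 8-week value was far above the other values, which were closer to each other. Jun was therefore 10.6-fold lower at 16 weeks than at 8 weeks (log2 difference -3.41) and 6.12-fold lower on the carcinoid array (-2.61). Among probe sets measured on both arrays, this was the 4th lowest of 3164 differences for 16 against 8 weeks and the 13th lowest of 3122 for carcinoid against 8 weeks.

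A second Jun probe set, X17163cds_s_at, built from the coding sequence and of the kind shared by similar transcripts, gave the widest contrast. It read 13.3 in the carcinoid and 14.1 at 16 weeks, both just above the floor, and 516 at 8 weeks. As deposited it read 14.9 for the carcinoid, 14.9 at 16 weeks and 348 at 8 weeks. Its log2 difference was -5.19 for 16 against 8 weeks and -5.28 for carcinoid against 8 weeks, the lowest of all probe sets measured on both arrays in each comparison. These correspond to 36.6-fold and 38.8-fold lower values. Because the dim readings lie at the floor, the size is uncertain, and with the floor at 30.0 the difference was -4.10 in both comparisons.

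The remaining Jun probe sets were dim. On rc_AA944014_at the normalized values were 16.5 for the carcinoid, 8.3 for 16 weeks and 20.7 for 8 weeks. The 16-week value was lower than the 8-week value by a factor of at least 1.67, and the carcinoid value was 1.25-fold lower. As deposited this probe set read 18.6 on the carcinoid array and 17.2 on the 8-week array, so the direction turned. On rc_AA945867_at the carcinoid read 1.63, 16 weeks 2.93 and 8 weeks 3.9, below the floor on every array. In carcinoid against 8 weeks the log2 difference on X17163cds_s_at minus that on rc_AA944014_at was -4.95, the widest gap between Jun probe sets. The large contrast of the bright pair was thus not seen on rc_AA944014_at, and rc_AA945867_at gave no measurement.

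Junb, a Jun relative with weaker activation of many AP-1 sites, was also highest at 8 weeks. On its brightest probe set, rc_AA891041_at, the intensity was 72.8 for the carcinoid, 47.9 for 16 weeks and 272 for 8 weeks (as deposited 86.6 for the carcinoid, 51.3 for 16 weeks and 177 for 8 weeks). That is 5.68-fold lower at 16 weeks than at 8 weeks (log2 difference -2.51, the 19th lowest) and 3.73-fold lower on the carcinoid array (-1.90, the 51st lowest). The carcinoid difference was smaller under other scalings, at -1.03 as deposited and at -0.53, short of 2-fold, with the hybridisation controls as the standard. The coding-sequence probe set X54686cds_at read 66.2 for the carcinoid, 71.6 at 16 weeks and 120 at 8 weeks, or 1.68-fold lower at 16 weeks and 1.82-fold lower on the carcinoid array. Before normalization this probe set was nearly level, at 78.2 for the carcinoid, 76.7 at 16 weeks and 83.9 at 8 weeks. The log2 difference of the tag probe set minus that of the coding-sequence probe set was -1.76 for 16 against 8 weeks. Among the 410 genes with 2 probe sets measured on both arrays, 34.1% had such a gap above 1 in size.

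Jund, the Jun protein usually present without stimulation, had 1 dim probe set, D26307cds_at. It read 1.9 in the carcinoid and 4.53 at 16 weeks, both below the floor, and 23.9 at 8 weeks. The bound was at least 1.93-fold lower both for the carcinoid and for 16 weeks against 8 weeks. As deposited it read 2 for the carcinoid, 4.9 at 16 weeks and 19.5 at 8 weeks, again highest at 8 weeks.

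Fos, the inducible partner of Jun, differed less. Its brightest probe set, X06769cds_g_at, read 76.8 on the carcinoid array, 58.8 at 16 weeks and 117 at 8 weeks. It was 1.99-fold lower at 16 weeks than at 8 weeks (log2 difference -0.995) and 1.52-fold lower on the carcinoid array (-0.61), the second of these inside the spread between probe sets. In the deposited intensities the carcinoid array read 91 and the 8-week array 82.4, so the direction of that second difference turned with the scaling. The 16-week array was lowest on both scales, at 62.9 as deposited.

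The other Fos probe sets did not share the order of the brightest one, which was lowest at 16 weeks. On X03347cds_g_at, which the annotation assigns to Fos through a different accession from the one in its name, the carcinoid read 30.2, 16 weeks 55.4 and 8 weeks 119. It was 3.94-fold lower on the carcinoid array and 2.14-fold lower at 16 weeks than at 8 weeks. On X06769cds_at, named for the same sequence as the brightest probe set, the carcinoid read 7.37 and 16 weeks 8.3, both below the floor, against 20.7 at 8 weeks. The brightest Fos probe sets lay 1.37 apart on the log2 scale in carcinoid against 8 weeks and 0.11 apart in 16 against 8 weeks.

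Fosl1, a Fos relative that lacks the strong activation domain of Fos, was below the floor on every array. Its probe set M19651_at read 2.07 on the carcinoid array, 1.8 at 16 weeks and 4.2 at 8 weeks, so no fold is given. A dim reading with rat probes does not show that the Mastomys transcript was missing.

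Atf3, a stress-induced factor that can repress or activate with Jun partners, was highest at 8 weeks. M63282_at read 13.1 on the carcinoid array, 17.9 at 16 weeks and 32.0 at 8 weeks (as deposited 14.7 for the carcinoid, 19.1 at 16 weeks and 25.5 at 8 weeks). It was 2.44-fold lower on the carcinoid array (log2 difference -1.29) and 1.79-fold lower at 16 weeks (-0.84) than at 8 weeks. Between carcinoid and 16 weeks the difference of -0.45 lay inside the spread of 0.62 and was 0.22 with the hybridisation controls as the standard, so these arrays give no order there. All its values were near or below 30.0, and with the floor raised to that level the difference between carcinoid and 8 weeks was -0.09.

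**Figure D2:**
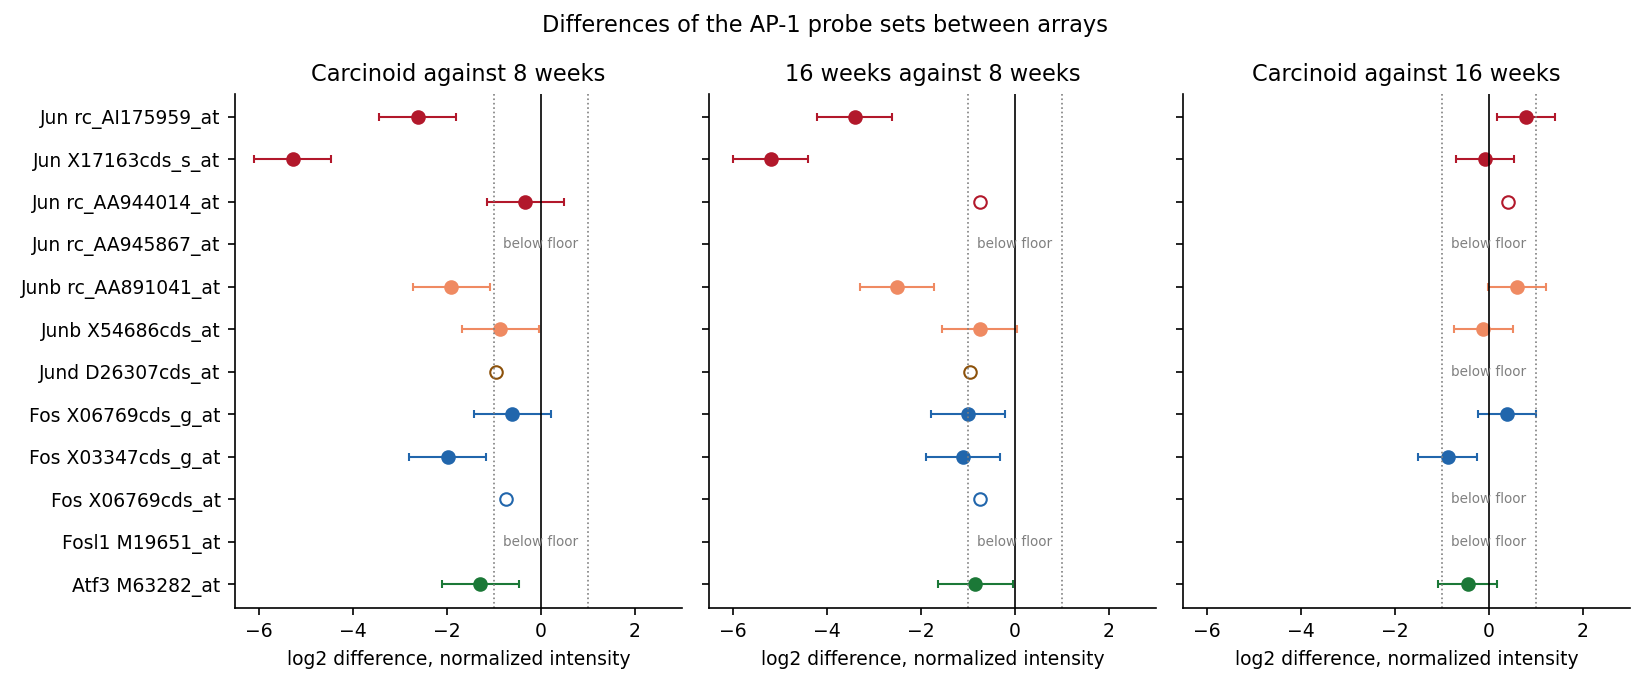
Log2 difference of normalized intensity for each AP-1 probe set in 3 comparisons, the first-named array minus the second. Filled points were measured on both arrays and carry a bar of plus or minus the spread between probe sets of a gene, open points are bounds because 1 array was below the floor, and dotted lines mark 2-fold. The 2 bright Jun probe sets, 1 Junb and 1 Fos probe set lie beyond 2-fold in both comparisons with 8 weeks, and no probe set does in carcinoid against 16 weeks.

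The first comparison sets longer against shorter loxtidine treatment. Of the 12 AP-1 probe sets 10 could be compared, and all 10 were lower at 16 weeks. On rc_AA944014_at (Jun), X06769cds_at (Fos) and the Jund probe set only the 8-week array reached the floor, so their direction was fixed. At least 2-fold lower were 4 (both bright Jun probe sets, 1 Junb and 1 Fos), and 0 were at least 2-fold higher. Of the 5586 probe sets compared in the same way, 13% were lower by that factor and 13.9% higher. As deposited 3 AP-1 probe sets were at least 2-fold lower and 0 higher. Taken as 1 value per gene, 2 of 5 measured members (Jun and Junb) were at least 2-fold lower and 0 higher, against 12.9% and 14% of 3345 genes. The median log2 difference of the 5 members was -0.995, that of all genes 0.01. As deposited these medians were -0.68 and 0.38.

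The spontaneous carcinoid was next set against 8 weeks of loxtidine. Again 10 probe sets could be compared and all 10 were lower on the carcinoid array. For X06769cds_at (Fos) and the Jund probe set only the 8-week array reached the floor, so their direction was fixed. The direction turned for 1 Jun and 1 Fos probe set as deposited. Under scaling by the hybridisation controls it also turned for the Junb coding-sequence probe set (0.41). At least 2-fold lower were 5 (both bright Jun probe sets, 1 Junb, 1 Fos and Atf3), and 0 were at least 2-fold higher, against 14% lower and 14.6% higher of 5620 probe sets. As deposited 4 were at least 2-fold lower and 0 higher. By gene, 3 of 5 members were at least 2-fold lower (Jun, Junb and Atf3), against 13.7% of 3370 genes, and 0 higher, against 14.6%. As deposited 2 of 5 were at least 2-fold lower (Jun and Junb, with Atf3 at -0.79), and under scaling by the hybridisation controls 1 of 5, Jun, with Junb at -0.53 and Atf3 at -0.29. The median log2 difference was -1.29 over the members and -0.02 over all genes. As deposited the members' median was -0.79 while all genes stood at 0.45. This comparison and the one before share the 8-week array, so a high reading there enters both.

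The carcinoid against 16 weeks of loxtidine, which leaves the 8-week array out, showed no such contrast. Of 8 AP-1 probe sets that could be compared, 4 were higher and 4 lower on the carcinoid array, and 0 passed 2-fold in either direction (3 higher under scaling by the hybridisation controls), against 9.38% higher and 9.67% lower of 5439 probe sets. For rc_AA944014_at (Jun), which was among those higher, only the carcinoid array reached the floor, so its direction was fixed. By gene 0 of 4 members passed 2-fold either way, against 9.41% higher and 9.29% lower of 3295 genes. Jun on its brightest probe set was 1.73-fold higher in the carcinoid (log2 difference 0.79, against a spread of 0.62), while the shared-type Jun probe set was 1.06-fold lower and read the same on both arrays as deposited. Junb was 1.52-fold higher on the tag probe set and 1.08-fold lower on the coding-sequence probe set. For Fos the corresponding values were 1.31-fold higher and 1.84-fold lower. Atf3 was 1.37-fold lower. With probe sets of 3 genes pointing both ways, these arrays give no order between carcinoid and 16 weeks for the family.

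**Figure D3:**
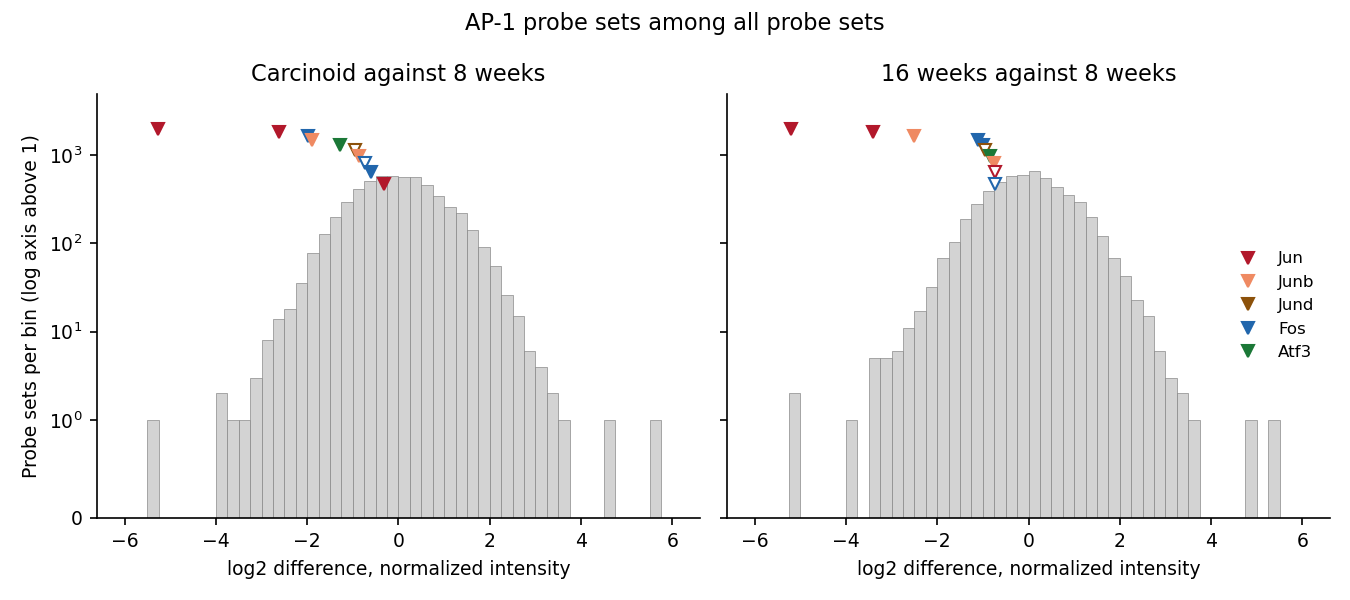
Number of probe sets per bin of log2 difference (bars, axis logarithmic above 1) for carcinoid against 8 weeks and 16 against 8 weeks, over all non-control probe sets at or above the floor on at least 1 of the arrays. Triangles mark AP-1 probe sets at their log2 difference, open where the value is a bound, and their height has no meaning. The lowest Jun probe set is at -5.28 and -5.19, and every AP-1 probe set is below 0.

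The balance between transcript ends also differed between the arrays. It leaned most to the 3' end at 8 weeks for GAPDH and, by a smaller factor, for beta-actin. For both the carcinoid value lay between the other arrays. The GAPDH control read 344 at its 5' end on the carcinoid array, 364 at 16 weeks and 37.3 at 8 weeks. Its 3' signal over its 5' signal was 2.31 for the carcinoid, 1.43 at 16 weeks and 8.95 at 8 weeks, and for beta-actin 11.7, 6.71 and 16.1 on these arrays. Bacterial hybridisation controls, added at known amounts in standard protocols, had median deposited intensities of 228 on the carcinoid array, 345 at 16 weeks and 324 at 8 weeks. The part of RNA quality in the AP-1 differences was not tested. Lot label and source field also differ between the groups and cannot be told apart from them.

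ECL identity could be checked only in part. The gene for the histamine-forming enzyme, Hdc, did not reach the floor, at 3.2 for the carcinoid, 4.77 at 16 weeks and 4.43 at 8 weeks. The vesicular monoamine transporter Slc18a2 read 23.2, 42.3 and 21.8 for carcinoid, 16 weeks and 8 weeks, and the gastrin receptor Cckbr 35.3, 56.5 and 74.3. As deposited Cckbr was highest at 16 weeks (40.2, 60.5 and 54.7 on these arrays), and so was its second probe set, at 2.83, 33.4 and 2.57 after normalization. Of 16 neuroendocrine and ECL markers with a probe set, 11 reached the floor on at least 1 array, with summed intensities of 253 for the carcinoid, 379 for 16 weeks and 362 for 8 weeks. Markers of other gastric cells summed, for carcinoid, 16 weeks and 8 weeks, to 2030, 2678 and 2783 for parietal cells (9 of 11 markers at the floor), 8162, 10588 and 8438 for chief cells (5 of 5), and 1685, 1241 and 1417 for mucous cells (7 of 7).

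Fibroblast, leukocyte and endothelial markers summed highest on the 8-week array. By less, so did parietal cell markers (2783 against 2678 at 16 weeks) and erythroid markers, but the scaling mattered there. As deposited the parietal medians were log2 0.45 for 16 weeks and 0.66 for the carcinoid against 8 weeks. The erythroid medians were 0.37 and 0.33. After normalization Slc4a2 gave 254, 275 and 859 of the parietal sums for carcinoid, 16 weeks and 8 weeks, and Atp4a 903, 1449 and 966. Fibroblast and matrix markers (10 of 11 at the floor) summed to 539, 640 and 1532 for carcinoid, 16 weeks and 8 weeks, of which 1 probe set of decorin, Dcn, gave 262, 317 and 1090, while vimentin, Vim, was below the floor throughout. Other Dcn probe sets had log2 differences of 0.31, -0.16 and, as a bound, -0.69 for carcinoid against 8 weeks. For 16 against 8 weeks they had -0.68 and, as bounds, -0.86 and -2.04. Pdgfra ran the other way, at 39.1 in the carcinoid, 25.9 at 16 weeks and 15.2 at 8 weeks. On the same arrays leukocyte markers (19 of 19) summed to 283, 335 and 549. Endothelial markers (6 of 8) summed to 78.9, 123 and 172, with Vwf and Sele below the floor throughout. Nos3 and Kdr were highest at 16 weeks (53.2 and 20.0, against 19.3 and 8.03 at 8 weeks), whereas Pecam1, Flt1, Selp and Icam2 were highest at 8 weeks. In 16 against 8 weeks 1 of 6 endothelial markers was at least 2-fold higher and 2 lower, or 1 and 1 of 5 as deposited. Smooth muscle markers (7 of 10) summed to 420, 351 and 390, and erythroid markers (4 of 4) to 258, 246 and 289. Of the smooth muscle sums Tpm1 gave 234, 179 and 293, highest at 8 weeks like Actg2 and Tagln. Acta2, Myh11, Cnn1 and Myl9 were instead lowest at 8 weeks, all but Myl9 below the floor there. In carcinoid against 8 weeks 3 of 7 smooth muscle markers were at least 2-fold higher and 1 lower, against 14.6% and 13.7% of all genes. Of 16 leukocyte markers 5 passed 2-fold lower and 1 higher in 16 against 8 weeks, against 12.9% and 14% of all genes. In carcinoid against 8 weeks 7 of 18 passed lower and 0 higher, against 13.7% and 14.6%. Among the lower ones Cd3d, Cd4, Cd74, C1qb (16 weeks) and Cd8b (carcinoid) reached the floor only at 8 weeks of the arrays compared, so their direction was fixed. The higher one, Cd8a, reached it only at 16 weeks. As deposited the lower counts were 2 of 16 and 3 of 18, with 1 higher in each. The part of these cells in the AP-1 values was not tested.

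Genes with a profile over the 3 arrays most like that of Jun were found by Euclidean distance of the centred log2 values among 1743 genes at the floor on every array. The nearest were Cebpb at 0.44, Nfkbia at 0.58, Ap2m1 at 0.63, Krt4 at 0.64 and Zfp36 at 0.65. For Junb they were Crmp1 at 0.21, Or10al7 at 0.27, Zfp36 at 0.42, Oaz2 at 0.52 and Cela1 at 0.52. A profile of 3 values carries little information, and several of these genes were close to the floor at 16 weeks (Cebpb 12.5, Nfkbia 13.1, Crmp1 13.8).

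The counts of the following gene lists stand against 14% of all genes higher and 12.9% lower in 16 against 8 weeks, 14.6% and 13.7% in carcinoid against 8 weeks, and 9.41% and 9.29% in carcinoid against 16 weeks. These counts and shares, like those of the markers, include genes that reached the floor on only 1 of the arrays compared. The direction of such genes was fixed and their fold is a bound. Of 24 other AP-1 and leucine zipper genes listed, 10 had a probe set. For 16 against 8 weeks 1 of 8 tested was at least 2-fold higher and 0 lower (median log2 difference 0.12), and for carcinoid against 8 weeks 1 of 6 was higher and 2 lower (-0.15, but 0 lower and 0.39 as deposited). Fosl2, a Fos relative, read 17.3 on the carcinoid array, 30.4 at 16 weeks and 43.4 at 8 weeks, 2.51-fold lower on the carcinoid array than at 8 weeks. Maf was 2.3-fold lower in the same comparison. The gene higher in both was Crem, a cyclic AMP-responsive factor, at 44.4 in the carcinoid and 34.6 at 16 weeks against 10.9, below the floor, at 8 weeks. Another Crem probe set was 1.55-fold lower on the carcinoid array than at 8 weeks. In carcinoid against 16 weeks 0 of 8 passed 2-fold in either direction (median -0.17).

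Kinases upstream of AP-1 were next counted. Among the MAP kinase cascade and its activators (26 of 46 listed had a probe set), 2 of 19 were at least 2-fold higher and 5 lower for 16 against 8 weeks (median -0.29, or 2 higher and 2 lower with 0.16 as deposited), and 4 of 23 higher and 6 lower for carcinoid against 8 weeks (0.02). As deposited carcinoid against 8 weeks gave 6 higher and 3 lower (0.49), and with the hybridisation controls 10 of 22 higher and 1 lower. For carcinoid against 16 weeks 3 of 21 passed in each direction (0.21). Mapkapk2, a kinase activated by p38, read 80.8 on the carcinoid array, 16.6 at 16 weeks and 72.3 at 8 weeks, lowest at 16 weeks. The small GTPase Nras was 4.31-fold higher at 16 weeks than at 8 weeks, where it read 13.1, near the floor, so the size is uncertain. Map3k1, a kinase that feeds the Jun kinases, was 2.39-fold higher in that comparison. In carcinoid against 8 weeks Map3k1 on its brightest probe set stood 2.51-fold higher, while its other probe sets gave bounds of at least 1.65-fold higher and at least 2.22-fold lower.

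Regulators that limit AP-1 signalling included Zfp36, which speeds the decay of short-lived mRNAs. It read 55.2 on the carcinoid array, 24.1 at 16 weeks and 179 at 8 weeks, 7.42-fold lower at 16 weeks and 3.24-fold lower on the carcinoid array than at 8 weeks, against 1.75-fold and 1.23-fold lower on its second probe set. The phosphatase Dusp1, which inactivates MAP kinases, read 12.6 for the carcinoid, 2.73 at 16 weeks and 28.9 at 8 weeks. Of 9 such regulators 1 was at least 2-fold higher and 3 lower for 16 against 8 weeks (median -0.61, or 1 and 1 with -0.14 as deposited), and 0 higher and 2 lower for carcinoid against 8 weeks (-0.21). That balance turned to 2 higher and 0 lower as deposited (0.76) and to 5 and 0 with the hybridisation controls. For carcinoid against 16 weeks 1 of 8 passed in each direction (0.47).

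Genes known as AP-1 targets in other tissues were also counted. Of 57 listed, 47 had a probe set. For 16 against 8 weeks 6 of 35 were at least 2-fold higher and 12 lower (median -0.28), which became 10 higher and 7 lower as deposited (0.17). Among the lower ones Mmp2, Spp1, Odc1, Penk, Icam1, Hbegf and Ptgs2 were below the floor at 16 weeks. Among the higher ones Hmox1 and Ezr were below it at 8 weeks. The folds of all these are bounds and their direction was fixed. For carcinoid against 8 weeks 5 of 34 were higher and 12 lower (-0.45), or 7 and 7 of 32 as deposited (-0.17) and 10 and 7 of 36 with the hybridisation controls (0.22). The cell cycle inhibitor Cdkn1a read 8.4 on the carcinoid array, 16.3 at 16 weeks and 48.0 at 8 weeks. The detoxifying enzyme Gstp1 ran the opposite way, at 114 in the carcinoid, 100.1 at 16 weeks and 27.1 at 8 weeks, or 4.2-fold (carcinoid) and 3.69-fold (16 weeks) above 8 weeks. Timp1, an inhibitor of matrix proteases, was 2.15-fold and 2.17-fold higher in these comparisons, whereas the chemokine Ccl2 was 2.38-fold lower in the carcinoid than at 8 weeks. In carcinoid against 16 weeks 1 of 31 was higher, the protease Plau (34.4 in the carcinoid, 15.9 at 16 weeks), and 5 were lower (-0.06).

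Gastrin-responsive genes of ECL cells, of which 15 of 20 had a probe set, gave 1 of 10 at least 2-fold higher and 3 lower for 16 against 8 weeks (median -0.24, or 2 and 2 of 11 with 0.15 as deposited). For carcinoid against 8 weeks 1 of 9 was higher and 5 lower (-1.08), which became 2 higher and 3 lower of 10 as deposited (-0.17) and 4 higher and 1 lower with the hybridisation controls (0.28). For carcinoid against 16 weeks 3 of 8 were higher and 2 lower (-0.77). Clusterin, Clu, a secreted chaperone, read 19.2 on the carcinoid array, 96.8 at 16 weeks and 79.8 at 8 weeks, an order unlike that of any AP-1 gene. Among 25 other stress and rapid-response factors with a probe set, 0 of 23 were at least 2-fold higher and 7 lower for 16 against 8 weeks (median -0.59), and 0 higher and 8 lower for carcinoid against 8 weeks (-0.29). As deposited 16 against 8 weeks gave 3 of 22 higher and 6 lower (-0.09) and carcinoid against 8 weeks 2 of 23 higher and 4 lower (0.04), the second becoming 9 of 22 higher and 2 lower with the hybridisation controls. For carcinoid against 16 weeks 5 of 20 were higher and 1 lower (0.14). Egr1, an immediate early zinc finger factor, shared the order of Jun, at 265, 96.4 and 3126 for carcinoid, 16 weeks and 8 weeks, although its probe sets disagreed and for 1 of them the carcinoid value exceeded the 8-week value by a factor of at least 3.05.

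The scaling of the arrays bears on all of these values, because the deposited 8-week intensities were lower across the table. After quantile normalization 467 genes were at least 2-fold higher and 430 lower in 16 against 8 weeks, but 748 and 208 as deposited. In carcinoid against 8 weeks the counts were 492 higher and 462 lower after normalization, 885 and 198 as deposited, and 1558 and 109 with the hybridisation controls as the standard. In carcinoid against 16 weeks they were 310 higher and 306 lower, against 1099 and 145 with those controls. With the hybridisation controls the members' median for carcinoid against 8 weeks was -0.53 and that of all genes 0.85. Jun stood below the median of all genes in both comparisons with 8 weeks under each of 4 scalings.

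**Figure D4:**
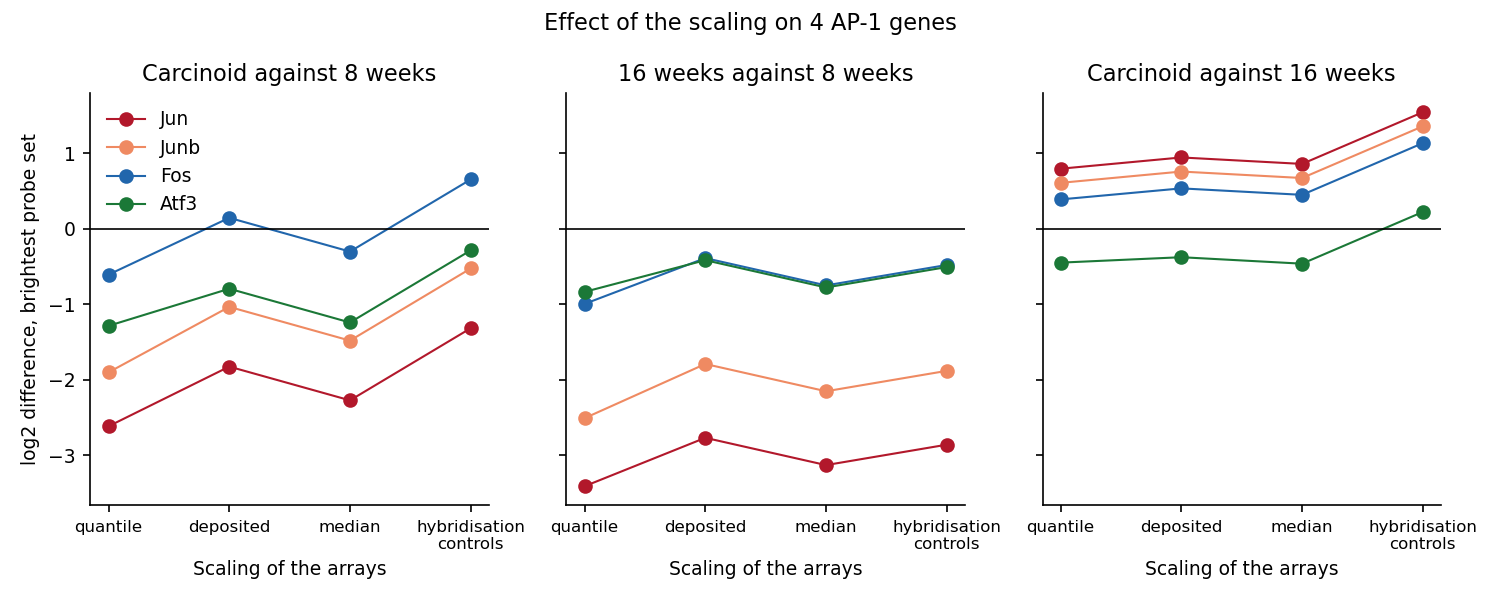
Log2 difference of the brightest probe set of Jun, Junb, Fos and Atf3 under 4 ways of scaling the arrays, in 3 comparisons. Points joined by a line belong to 1 gene. Jun stays below 0 in both comparisons with 8 weeks under each scaling, from -3.41 to -1.32, whereas Fos in carcinoid against 8 weeks runs from -0.61 to 0.65.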

How the data were processed

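RNA of 3 samples was measured, 1 array per group, grouped by the sample descriptions. The authors deposited a linear intensity for each probe set of each array. How it was computed, background-corrected and scaled is not given in the sources used here. The 2% trimmed means were 27.6 (carcinoid), 25.5 (16 weeks) and 18.1 (8 weeks), over 5% apart, so quantile normalization was applied. Of 8740 non-control probe sets, 7006 had 1 symbol in the platform annotation, and each gene is represented by its brightest probe set (mean over arrays as deposited). The spread between probe sets is the root mean square gap between the 2 brightest probe sets of a gene, divided by the square root of 2. No test was run, and the number of arrays limits precision. The members, the 7 gene lists and the 9 marker lists were chosen with earlier results of these data known. Named from each list were up to 2 genes per direction and comparison, of those measured on both arrays and at least 2-fold apart, with the largest differences; not all are printed. Others, among them Crem, Dusp1 at 16 weeks, Dcn and single probe sets, were added after their values were seen. Chga had no probe set with a single symbol and is not analysed here. Alternatives were the deposited intensities, median scaling, the floor at the 25th (4.2) or 75th percentile (30.0), the floor added to each value before log2, the median of a gene's probe sets, 1 probe set per gene and, added after seeing the data, scaling by 9 bacterial hybridisation controls. Steps were tested on simulated data. Python 3.11.15, numpy 2.4.6 and pandas 2.3.3 were used.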

Additional observations from a re-analysis of the deposited data

How the results depend on the processing

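Of 63 alternative values for the AP-1 counts and medians, 57 stayed within 1.5 times the count or within the spread between probe sets, and 6 moved. With the floor at the 25th percentile 7 AP-1 probe sets were at least 2-fold lower for 16 against 8 weeks. With 1 probe set per gene the counts were 2 for 16 against 8 weeks and 3 for carcinoid against 8 weeks, since fewer probe sets are counted. With scaling by the hybridisation controls, 2 probe sets were at least 2-fold lower in the carcinoid than at 8 weeks, 3 were at least 2-fold higher in the carcinoid than at 16 weeks, and the members' median for carcinoid against 16 weeks was 1.24. That scaling moved the median of all genes to 0.85 for carcinoid against 8 weeks, 0.62 for carcinoid against 16 weeks and 0.30 for 16 against 8 weeks; the cause was not tested. Among 159 values of single probe sets 23 moved, and none with a main difference of 2-fold or more changed sign. No paired analysis was possible because each group has 1 array. Signal near the floor limits Jund, Atf3, Fosl1 and the dim Jun and Fos probe sets.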

Other observations

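Several further genes of the lists differed by 2-fold or more on their brightest probe set. Odc1, the rate-limiting enzyme of polyamine synthesis, read 10.9 in the carcinoid and 11.6 at 16 weeks, both below the floor, against 76.2 at 8 weeks. Dnajb1, a heat shock co-chaperone, read 28.2 in the carcinoid, 31.3 at 16 weeks and 182 at 8 weeks, and its second probe set read 46.6, 22.4 and 160 on these arrays. Both were highest on the 8-week array, like Jun.

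Other genes set the 16-week array apart. Tff2, a secreted peptide of gastric mucous cells, read 65.6 in the carcinoid, 19.3 at 16 weeks and 44.8 at 8 weeks. The tyrosine kinase Src read 37.1 in the carcinoid, 16.7 at 16 weeks and 38.0 at 8 weeks. Nr4a1, an immediate early nuclear receptor, read 83.7 in the carcinoid, 28.9 at 16 weeks and 103 at 8 weeks. Muc5ac, the main surface mucin of the stomach, was instead lowest at 8 weeks, at 213 in the carcinoid, 168 at 16 weeks and 15.8 at 8 weeks. These genes were chosen after their values were seen, and none of the differences has a replicate check.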
